A study of Mus musculus with 12 samples.

Results

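The 10 genes of repressive H3K9 chromatin were followed in mouse embryonic stem cells (mESCs): the KAP1 pathway genes Trim28, Setdb1 and Zfp57, the further H3K9 methyltransferase genes Ehmt1, Ehmt2, Suv39h1 and Suv39h2, and the HP1 genes Cbx1, Cbx3 and Cbx5. They were chosen by name, as a list of 10 genes, from the 39017 genes of the deposited table. All 10 were found, and all 10 were among the 17885 genes that passed the filter on low counts. Poly(A) RNA of 12 libraries was measured, 3 biological replicates in each of 4 groups, which were J1 in serum, J1 in 2i, 3B3L in serum and 3B3L in 2i. J1 cells are male and wild type. The line 3B3L, spelled 3B3-3l in the labels, lacks the endogenous genes (Dnmt3a-/-, Dnmt3b-/-) and expresses Dnmt3b and Dnmt3l-Flag from transgenes under the CAG promoter, which is active in both media, so that methylation of its DNA persists in 2i. Serum medium held 15% fetal calf serum and 500 U/ml LIF per the labels. 2i medium was serum-free N2B27 with 1 µM PD0325901, an inhibitor of MEK, 3 µM CHIR99021, an inhibitor of GSK3, and 1000 U/ml LIF. LIF was thus present in all groups. The labels give a lower dose of it for serum than for 2i, whereas the methods of the study name the 2i dose for both media. The J1 serum cultures were kept on feeder cells, which were depleted by plating, and the 3B3L serum cultures on gelatin, so culture surface and line cannot be told apart in that medium. 3B3L is 1 engineered line, so the transgenes and the other history of that line cannot be told apart.

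Methylation of lysine 9 of histone H3 marks silent chromatin. KRAB zinc finger proteins such as ZFP57 bind particular DNA sequences and recruit KAP1, the product of Trim28, which in turn brings HP1 proteins and SETDB1, the enzyme that trimethylates the lysine. G9A and GLP, from Ehmt2 and Ehmt1, work as a heterodimer that adds mono- and dimethylation in euchromatin, while SUV39H1 and SUV39H2 add trimethylation at pericentromeric repeats. HP1β, HP1γ and HP1α, from Cbx1, Cbx3 and Cbx5, bind the methylated lysine. In mESCs these factors silence endogenous retroviruses and germline genes and protect imprints from loss of DNA methylation.

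Libraries held 37050652 to 44515395 estimated reads. Dnmt3a, deleted in 3B3L, stood at 166 ± 0.785 CPM (counts scaled to library size with TMM factors) in J1 serum, 41.5 ± 2.78 in J1 2i, 32.1 ± 2.50 in 3B3L serum and 4.67 ± 0.585 in 3B3L 2i (SD, n = 3). Dnmt3b, supplied by a transgene in 3B3L, stood at 413 ± 12.2 CPM in J1 serum, 44.1 ± 3.12 in J1 2i, 891 ± 32.05 in 3B3L serum and 928 ± 12.7 in 3B3L 2i. Dnmt3l, also expressed from a transgene in 3B3L, had 285 ± 0.413, 52.8 ± 4.26, 485 ± 32.9 and 289.8 ± 4.57 CPM in the same order. Both Dnmt3b and Dnmt3l were thus higher on average in 3B3L than in J1 in each medium, while Dnmt3l was lower in 2i than in serum in 3B3L too. These counts do not tell transgene from endogenous transcripts. Reads of Dnmt3a are counted over the whole gene, not over the deleted part, so that its level does not check the deletion. All 10 mESC markers examined, Pou5f1, Nanog and Sox2 among them, were at 10 CPM or more in every group. The summed level of 10 fibroblast markers was 58.7 to 62.1 CPM in J1 serum, 25.8 to 27.0 in J1 2i, 75.3 to 88.9 in 3B3L serum and 17.0 to 17.3 in 3B3L 2i. Of these markers Lum was at 0 in J1 serum, and Dcn and Lum were at 0 in both 2i groups. The fibroblast markers thus moved with the medium, and their part in the results was not tested.

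Nearly all of these genes differed between the media. Relative to serum, all 10 genes were called in J1 (edgeR quasi-likelihood test, adjusted p under 0.05), 4 higher and 6 lower, where 66.1% of all genes tested were called (33.2% higher and 32.9% lower). In 3B3L 9 of 10 were called, 3 higher and 6 lower, where 65.4% of all genes were called (32.7% in each direction). Most genes were thus called between media, whether or not they belong to these 10. Zfp57, Setdb1 and Cbx3 were higher in 2i in both lines, and Trim28, Ehmt1, Ehmt2, Suv39h1, Suv39h2 and Cbx1 were lower in both. As the genes went both ways, the median log2 fold change of the 10 was -0.18 in J1 and -0.15 in 3B3L, beside 0.01 over all genes in each line. The largest change, of Zfp57, was 1.96-fold in 3B3L. Tested against a fold of 1.2 instead of no change (edgeR's glmTreat), 7 genes were called in J1, all but Suv39h1, Suv39h2 and Cbx5, and 4 in 3B3L, which were Zfp57, Setdb1, Ehmt1 and Ehmt2. By that test 46.3% of all genes were called in J1 and 46.0% in 3B3L. CPM of the 2i and serum libraries did not overlap for 10 genes in J1 and 9 in 3B3L, as for 68.7% and 69.6% of all genes. In bulk RNA, fewer cells with a transcript and less of it per cell cannot be told apart.

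**Figure D1:**
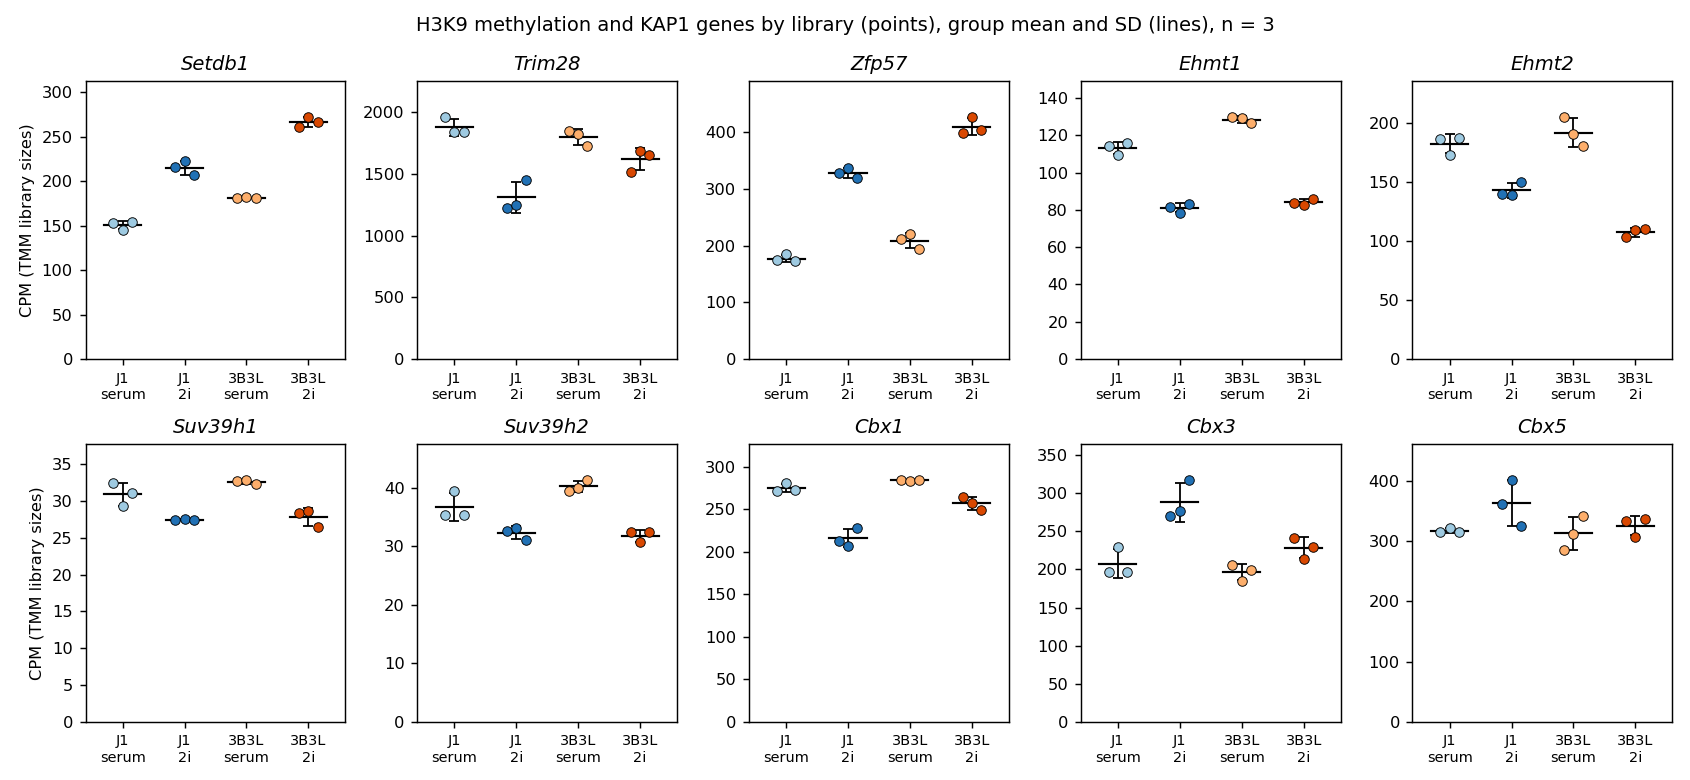
CPM of the 10 genes in each of the 12 libraries, with group means (long bars) and SD (whiskers, n = 3); the vertical axes start at 0 and differ between genes. Zfp57 and Setdb1 were higher in the 2i libraries of both lines with no overlap, while Ehmt2 was lowest in 3B3L 2i and Trim28 lowest in J1 2i.

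Zfp57 (chromosome 17, 37001163 to 37010729, ENSMUSG00000036036), which encodes the KRAB zinc finger protein that binds methylated imprinting control regions, had the largest change of the 10. Its CPM were 174, 185 and 173 across the J1 serum libraries and 329, 337 and 318 across the J1 2i libraries. For 3B3L the corresponding CPM were 211, 220.5 and 194 and 398, 426 and 405. All 6 libraries in 2i were above all 6 in serum. The log2 fold change was 0.89 ± 0.05 in J1 (SE, n = 3 per group, 1.85-fold, edgeR adjusted p = 5.31e-10) and 0.97 ± 0.05 in 3B3L (1.96-fold, edgeR adjusted p = 1.45e-10). The difference between these 2i effects, 0.09 ± 0.07, was not called (edgeR adjusted p = 0.407), with a 95% interval of -0.07 to 0.24. Zfp57 was also higher in 3B3L than in J1, by 0.24 ± 0.05 with serum and 0.32 ± 0.05 with 2i (edgeR adjusted p = 0.00243 and 0.000119).

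Setdb1 (chromosome 3, 95323525 to 95357202, ENSMUSG00000015697), whose enzyme KAP1 recruits, followed the same order of groups at a smaller size. J1 libraries gave 153, 145 and 154 CPM with serum and 216, 222 and 207 CPM with 2i. 3B3L libraries gave 181, 182 and 182 CPM with serum and 261, 272 and 267 CPM with 2i. No library of one group overlapped with another group, so that J1 serum was lowest, 3B3L serum next, then J1 2i and 3B3L 2i. The 2i effect was 0.51 ± 0.04 in J1 and 0.55 ± 0.04 in 3B3L on the log2 scale (edgeR adjusted p = 4.21e-08 and 1.38e-08), and their difference of 0.04 ± 0.06 was not called (95% interval -0.09 to 0.17, edgeR adjusted p = 0.634). Between lines Setdb1 was higher in 3B3L by 0.27 ± 0.04 with serum and 0.31 ± 0.04 with 2i (edgeR adjusted p = 0.000195 and 2.94e-05).

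Trim28 (chromosome 7, 13024152 to 13031032, ENSMUSG00000005566), the gene of KAP1 itself, went the other way. Cultures of J1 in serum measured 1959.7, 1837 and 1843 CPM and those in 2i 1228, 1250.2 and 1450.3 CPM. Cultures of 3B3L measured 1852, 1824 and 1731 CPM in the first medium and 1519, 1688 and 1650.3 CPM in the second. The media did not overlap in either line, but lay close to each other in 3B3L. The log2 fold change was -0.52 ± 0.06 in J1 (0.697-fold, edgeR adjusted p = 2.86e-06) and -0.15 ± 0.06 in 3B3L (0.898-fold, edgeR adjusted p = 0.0448). The 2 effects differed, by 0.37 ± 0.09 (edgeR adjusted p = 0.00552): the fall in 2i was smaller in 3B3L. In serum the lines differed in Trim28 by -0.06 ± 0.06, which was not called (edgeR adjusted p = 0.489), and Trim28 was higher in 3B3L in 2i (0.31 ± 0.06, edgeR adjusted p = 0.00105). The call in 3B3L between media was weak: it was lost without 3B3L 2i replicate 1 (edgeR adjusted p = 0.197) or 3 (0.0706), without 3B3L serum replicate 1 (0.118) or 2 (0.109), and with transcript length offsets (0.291). The difference between the 2i effects kept its call when any 1 library was left out, with edgeR adjusted p of up to 0.0273, and lost it against a fold of 1.2 (glmTreat in edgeR, adjusted p = 0.170).

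The upstream sequences of these KAP1 pathway genes are shown because CG dinucleotides are the sites on which DNA methylation acts and methylation is what the lines were built to differ in. Each is the 250 bases before the annotated start of the gene, read 5′ to 3′ on the strand of the gene, from RefSeq on GRCm38.p6 (mm10), with each CG in capitals.
Zfp57, chr17:37000913-37001162, plus strand: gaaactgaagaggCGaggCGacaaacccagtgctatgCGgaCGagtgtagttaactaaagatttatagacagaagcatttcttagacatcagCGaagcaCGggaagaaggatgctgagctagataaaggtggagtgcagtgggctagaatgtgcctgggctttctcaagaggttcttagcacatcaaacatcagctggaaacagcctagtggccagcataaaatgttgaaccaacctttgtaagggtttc
Setdb1, chr3:95357203-95357452, minus strand: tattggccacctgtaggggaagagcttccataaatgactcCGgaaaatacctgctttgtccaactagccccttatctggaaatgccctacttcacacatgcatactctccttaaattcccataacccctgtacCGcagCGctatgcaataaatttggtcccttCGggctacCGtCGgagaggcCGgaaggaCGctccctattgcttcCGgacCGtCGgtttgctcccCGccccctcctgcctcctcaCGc
Trim28, chr7:13023902-13024151, plus strand: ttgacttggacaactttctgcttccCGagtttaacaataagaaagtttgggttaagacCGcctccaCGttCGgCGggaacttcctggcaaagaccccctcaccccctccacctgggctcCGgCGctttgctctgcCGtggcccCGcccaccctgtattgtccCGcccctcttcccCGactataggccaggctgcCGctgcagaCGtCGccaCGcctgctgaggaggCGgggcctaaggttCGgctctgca
The window of Zfp57 held 6 CG, equal to the median of 6 over the 32851 RefSeq windows of this length. The window of Setdb1 held 13 and that of Trim28 17. RefSeq gave 16 windows for the 10 genes, with 3 to 36 CG, and the fewest stood before another start of Zfp57. The GC box GGGCGG, searched on both strands, was in 12 of these 16 windows and in 32.7% of all windows. The 12 belonged to 9 of the 10 genes, Zfp57 being the exception. The strings CCGGAAGT (ETS, in 2.88% of all windows), CTTTGAT (TCF/LEF, 3.21%), AAGGTCA (ESRRB, 4.08%) and TTTCGCGC (E2F, 0.256%) matched none of the 16 windows on either strand, and TTTGGCGC (E2F, 0.417%) matched 1, of Cbx3. These matches describe letters only. DNA methylation of these windows was not measured in these libraries.

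The genes of the G9A and GLP heterodimer both fell in 2i. Ehmt1 (chromosome 2, 24790769 to 24919643, ENSMUSG00000036893) encodes GLP. With serum the CPM of J1 were 114, 109.7 and 116 and those of 3B3L 129.7, 129 and 126. With 2i they were 81.8, 78.4 and 83.1 for J1 and 83.7, 82.9 and 85.9 for 3B3L. All libraries in 2i were below all libraries in serum, and the 2i libraries of the 2 lines overlapped. The log2 fold change was -0.48 ± 0.04 in J1 and -0.61 ± 0.04 in 3B3L (edgeR adjusted p = 7.65e-08 and 3.72e-09), and the difference of -0.13 ± 0.06 was not called (95% interval -0.26 to 0.0012, edgeR adjusted p = 0.118). In serum Ehmt1 was higher in 3B3L by 0.18 ± 0.04 (edgeR adjusted p = 0.00340). In 2i the lines differed by 0.05 ± 0.04, which was not called (edgeR adjusted p = 0.342). With at least 10 counts required in every library, the difference between the 2i effects was called (-0.16, edgeR adjusted p = 0.0364).

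Ehmt2 (chromosome 17, 34898463 to 34914073, ENSMUSG00000013787) encodes G9A, the partner of GLP. Its CPM were 187, 173 and 188 across the J1 serum libraries and 139.9, 139 and 150.3 across the J1 2i libraries. For 3B3L the corresponding CPM were 205, 191 and 180.3 and 103, 109 and 110.3. The serum libraries of the 2 lines overlapped, whereas the 3B3L 2i libraries were below all others. The log2 fold change was -0.35 ± 0.06 in J1 (0.783-fold, edgeR adjusted p = 3.98e-05) and -0.84 ± 0.06 in 3B3L (0.560-fold, edgeR adjusted p = 1.92e-09). The difference between the 2i effects was -0.48 ± 0.08 (edgeR adjusted p = 0.000243) and kept its call under each of the 19 alternatives run. In 2i Ehmt2 was lower in 3B3L than in J1 (log2 difference -0.41 ± 0.06, edgeR adjusted p = 2.22e-05), while in serum the lines differed by 0.07 ± 0.06, which was not called (edgeR adjusted p = 0.331). Per length, Ehmt2 made up 67.3% ± 0.589 of the summed level of the pair in J1 serum and 70.8% ± 1.35 in J1 2i, against 65.4% ± 2.24 in 3B3L serum and 63.7% ± 0.530 in 3B3L 2i (SD, n = 3). The 2i libraries of the lines did not overlap in this share (exact two-sided permutation p = 0.1, the smallest that 3 libraries against 3 allow, 0.2 adjusted over 20 comparisons of this kind).

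The SUV39H genes were the least expressed and fell slightly. Suv39h1 (chromosome X, 8061171 to 8074760, ENSMUSG00000039231) and Suv39h2 encode redundant enzymes of pericentromeric heterochromatin. Cultures of J1 in serum measured 32.4, 29.3 and 31.1 CPM and those in 2i 27.4, 27.6 and 27.4 CPM. Cultures of 3B3L measured 32.8, 32.9 and 32.3 CPM in the first medium and 28.3, 28.7 and 26.5 CPM in the second. Media did not overlap within a line, while lines overlapped within a medium. The 2i effect was -0.17 ± 0.05 in J1 and -0.23 ± 0.05 in 3B3L (edgeR adjusted p = 0.0100 and 0.00129). In J1 the call was lost without J1 serum replicate 1 (edgeR adjusted p = 0.0554). No difference between the lines was called, with 95% intervals of -0.04 to 0.19 with serum and -0.09 to 0.13 with 2i (edgeR adjusted p = 0.268 and 0.797).

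Suv39h2 (chromosome 2, 3455815 to 3474986, ENSMUSG00000026646) is the other gene of this pair. J1 libraries gave 35.3, 39.4 and 35.4 CPM with serum and 32.6, 33.2 and 31.1 CPM with 2i. 3B3L libraries gave 39.5, 39.9 and 41.3 CPM with serum and 32.4, 30.7 and 32.4 CPM with 2i. J1 serum replicate 2 was above the other J1 serum libraries and just below the lowest 3B3L serum library. The 2i effect was -0.18 ± 0.06 in J1 and -0.34 ± 0.06 in 3B3L (edgeR adjusted p = 0.00878 and 5.97e-05). With J1 serum replicate 2 left out the call in J1 was lost (-0.13, edgeR adjusted p = 0.0575), the serum libraries of the lines were called apart (0.19, edgeR adjusted p = 0.0213, against 0.0746 with it) and so were the 2i effects (-0.24, edgeR adjusted p = 0.0295, against 0.146). The call in J1 was also lost with transcript length offsets (-0.13, edgeR adjusted p = 0.107). In 2i the lines differed by -0.02 ± 0.06, which was not called (edgeR adjusted p = 0.767).

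Of the HP1 genes, Cbx1 fell and Cbx3 rose in 2i, in both lines. Cbx1 (chromosome 11, 96788680 to 96808982, ENSMUSG00000018666) encodes HP1β. With serum the CPM of J1 were 272, 281 and 273 and those of 3B3L 284, 284 and 285. With 2i they were 213, 207 and 228 for J1 and 265, 258 and 249 for 3B3L. J1 2i was lowest, apart from all other groups. The log2 fold change was -0.35 ± 0.05 in J1 and -0.14 ± 0.05 in 3B3L (edgeR adjusted p = 4.94e-06 and 0.0114); the second was lost without 3B3L 2i replicate 3 (edgeR adjusted p = 0.0672). The effects differed by 0.21 ± 0.06 (edgeR adjusted p = 0.0203). This difference was not called without J1 serum replicate 1, 2 or 3 (edgeR adjusted p = 0.0569, 0.0776 and 0.0587) or without 3B3L 2i replicate 1 or 2 (0.0547 and 0.0702). In 2i Cbx1 was higher in 3B3L by 0.25 ± 0.05 (edgeR adjusted p = 0.000273), and in serum the difference of 0.05 ± 0.05 was not called (edgeR adjusted p = 0.450).

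Cbx3 (chromosome 6, 51470154 to 51483704, ENSMUSG00000029836) encodes HP1γ, which is also found in euchromatin. Cultures of J1 in serum measured 197, 229 and 196 CPM and those in 2i 270.5, 277 and 317 CPM. Cultures of 3B3L measured 206, 185 and 199.8 CPM in the first medium and 242, 214 and 229.9 CPM in the second. J1 2i was highest, and the serum groups overlapped. The log2 fold change was 0.47 ± 0.07 in J1 (1.39-fold, edgeR adjusted p = 3.63e-05) and 0.21 ± 0.07 in 3B3L (1.16-fold, edgeR adjusted p = 0.0191). The call in 3B3L was lost without 3B3L 2i replicate 1 (edgeR adjusted p = 0.0860) or 3B3L serum replicate 2 (0.0902), and with at least 10 counts required in every library (0.0690). The difference between the 2i effects, -0.26 ± 0.10, was not called (edgeR adjusted p = 0.0677), and was called without J1 serum replicate 2 (-0.36, edgeR adjusted p = 0.0129), with no filter on low counts (-0.25, 0.0390) and with at least 10 counts in every library (-0.29, 0.0351). In 2i Cbx3 was lower in 3B3L than in J1 (log2 difference -0.33 ± 0.07, edgeR adjusted p = 0.00159), while in serum the lines differed by -0.07 ± 0.07, which was not called (edgeR adjusted p = 0.459). The processed copy Cbx3-ps3, which could share reads with Cbx3, held 2 reads in the J1 2i libraries together and 0 in the other groups.

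Cbx5 (chromosome 15, 103191546 to 103239904, ENSMUSG00000009575), the gene of HP1α, had the fewest calls of the 10, with 1. J1 libraries gave 316, 322 and 316 CPM with serum and 362, 402 and 326 CPM with 2i. 3B3L libraries gave 286, 311 and 341 CPM with serum and 334, 307 and 336 CPM with 2i. The J1 media were narrowly apart, and the 3B3L media overlapped. The 2i effect of 0.19 ± 0.07 in J1 was called (edgeR adjusted p = 0.0300), but not without J1 2i replicate 1 or 2 (edgeR adjusted p = 0.0588 and 0.164) or J1 serum replicate 1, 2 or 3 (0.0796, 0.0575 and 0.0755). It was not called either with at least 10 counts required in every library (edgeR adjusted p = 0.0563). With transcript length offsets it was -0.01 (edgeR adjusted p = 0.940). The share of its longest transcript, Cbx5-001, was 76.4% ± 3.24 of the gene per length in J1 2i against 65.1% ± 1.36 in J1 serum (SD, n = 3), and its part in this was not tested. In 3B3L the 2i effect of 0.06 ± 0.07 was not called (95% interval -0.10 to 0.21, edgeR adjusted p = 0.499). The lines differed by -0.02 ± 0.07 in serum and -0.16 ± 0.07 in 2i, neither of which was called (edgeR adjusted p = 0.837 and 0.0960); the second was called without J1 2i replicate 3 (-0.23, edgeR adjusted p = 0.0136) and with no filter on low counts (-0.17, 0.0376).

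The makeup of the HP1 transcript pool was compared as the share of each gene in the summed length-scaled reads of Cbx1, Cbx3 and Cbx5 within a library, which needs no scaling between libraries. In J1 serum Cbx1 held 46.1, 44.2 and 46.8% and Cbx3 38.8, 40.9 and 37.6%. In J1 2i Cbx1 held 34.0, 32.4 and 33.5% and Cbx3 50.7, 51.7 and 54.3%. Over all transcripts, coding or not, Cbx1 was thus the leading HP1 gene in every J1 serum library. Cbx3 led in every J1 2i library, where it passed 50%. Transcripts not annotated as protein coding held 57.6% ± 1.42 of Cbx1 in J1 serum, 1.37% ± 0.327 of Cbx3 and 0% of Cbx5 (SD, n = 3). Shares of coding transcripts alone were not computed, so which HP1 gene led among those was not tested. In 3B3L Cbx1 went from 47.2% ± 0.932 in serum to 41.4% ± 1.34 in 2i and Cbx3 from 37.2% ± 1.52 to 42.9% ± 1.11 (SD, n = 3), so that the 2 genes were nearly level in 2i. Cbx5 held 15.2% ± 0.370, 14.5% ± 1.96, 15.5% ± 1.27 and 15.7% ± 0.462 in J1 serum, J1 2i, 3B3L serum and 3B3L 2i, which overlapped. The media did not overlap for Cbx1 or Cbx3 in either line, nor did the lines in 2i (exact two-sided permutation p = 0.1 each, 0.2 adjusted over 20 comparisons), and in serum the lines overlapped. With reads not scaled by length Cbx5 led in every group at 39.3% to 41.9% on average. On that scale Cbx1 held 34.4% and 24.9% in serum and 2i of J1 and 35.8% and 31.7% in those of 3B3L, while Cbx3 held 25.9% and 33.2%, then 24.8% and 28.1%, so that the directions were unchanged.

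**Figure D2:**
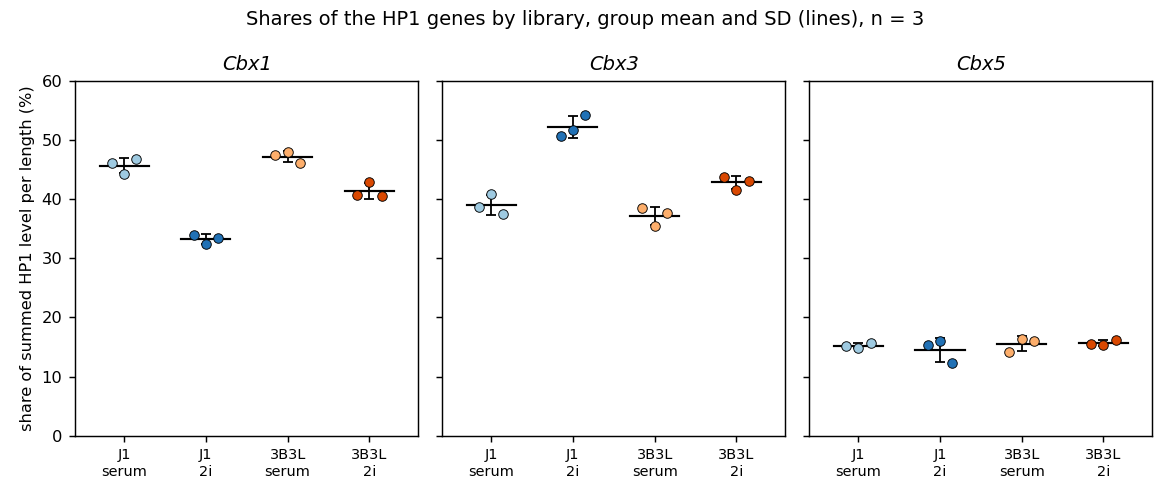
Share of Cbx1, Cbx3 and Cbx5 in the summed HP1 level per length over all transcripts, coding or not (percent, axis from 0), in each library, with group means and SD (n = 3). Cbx3 held more than Cbx1 in each J1 2i library and less in each serum library, and Cbx5 held 14.5% to 15.7% on average in every group.

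The lines were compared within each medium to see which of these genes differed between them. In serum 3 of 10 genes were called, Setdb1, Zfp57 and Ehmt1, all higher in 3B3L, where 38.7% of all genes were called (21.5% higher and 17.2% lower). In 2i 6 of 10 were called, where 45.9% of all genes were called (23.0% higher and 22.9% lower): Setdb1, Zfp57, Trim28 and Cbx1 were higher in 3B3L and Ehmt2 and Cbx3 lower. CPM of the lines did not overlap for 5 genes in serum and 6 in 2i, as for 50.9% and 52.6% of all genes. The median log2 difference of the 10 genes was 0.07 in serum and 0.04 in 2i, beside 0.03 and 0.01 over all genes. The 2i effects of the lines differed for 3 genes, Trim28, Cbx1 and Ehmt2, where 34.7% of all genes were called (16.3% higher and 18.3% lower). For Trim28 and Cbx1 the 2i effect was smaller in 3B3L, and for Ehmt2 it was larger. Setdb1 and Zfp57 had a line difference of like size in both media. The comparisons share groups with each other and are not independent.

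**Figure D3:**
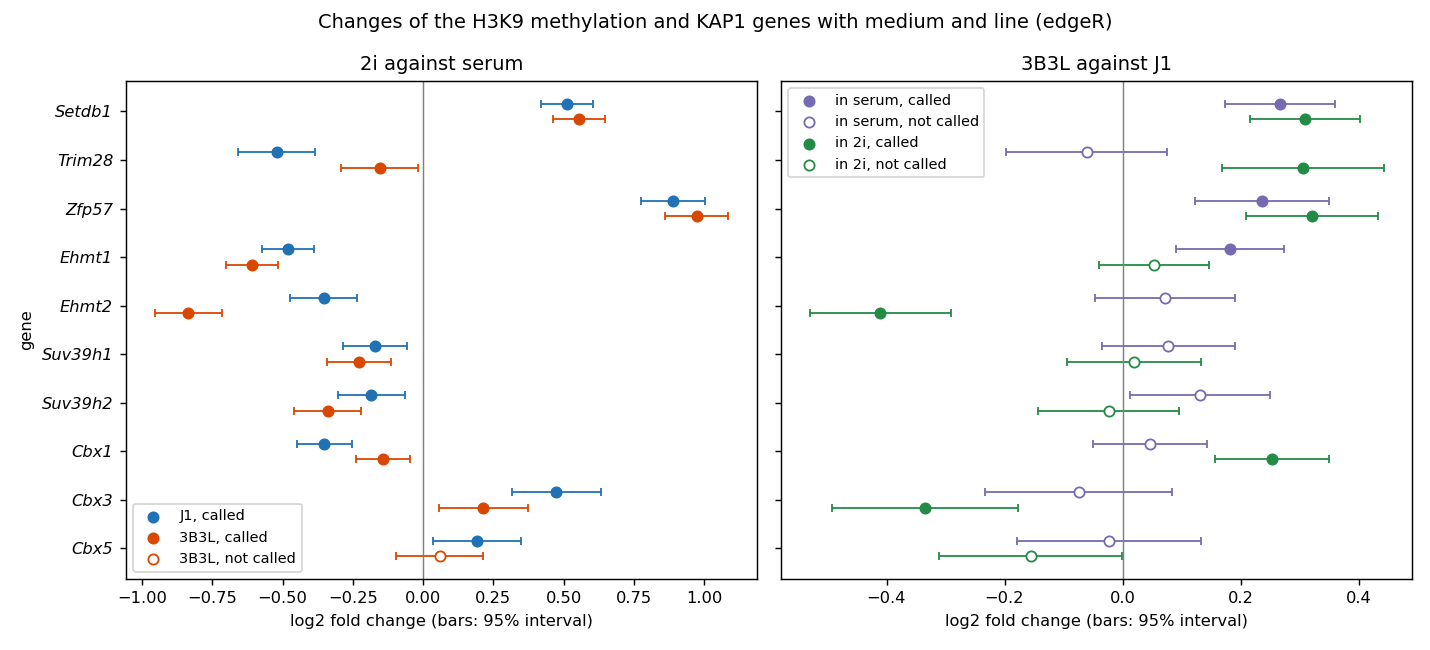
Log2 fold changes of the 10 genes with 95% intervals from the edgeR model, for 2i against serum in each line (left) and 3B3L against J1 in each medium (right); filled points were called at an adjusted p under 0.05, open points were not. The intervals of the 2 lines lie apart for Trim28, Ehmt2 and, narrowly, Cbx1 on the left. On the right, the intervals of Ehmt2, Cbx3 and, narrowly, Cbx5, which was not called, lie below 0 in 2i.

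Levels of different genes were compared per length, as CPM per kilobase of effective transcript length (mean ± SD, n = 3). Trim28 led in every group, at 760.4 ± 53.3 in J1 serum, 557 ± 48.5 in J1 2i, 746 ± 5.66 in 3B3L serum and 675 ± 42.0 in 3B3L 2i. In serum Cbx1, with its transcripts not annotated as protein coding included, came second in both lines, at 159 ± 2.48 in J1 and 162 ± 2.79 in 3B3L. In 2i Zfp57 had moved up to second place, at 224 ± 14.5 in J1 and 269 ± 9.79 in 3B3L, from 124 ± 4.46 and 146 ± 6.31 in serum. Of the methyltransferase genes Ehmt2 stood above Setdb1 in serum, at 59.3 ± 2.11 against 33.5 ± 1.08 in J1 and 62.5 ± 4.04 against 40.4 ± 0.457 in 3B3L. In J1 2i they overlapped, at 48.8 ± 1.82 and 47.6 ± 2.75, and in 3B3L 2i Setdb1 stood above, at 56.6 ± 1.24 against 36.2 ± 1.68. Ehmt1 came eighth in every group, at 20.2 to 33.0 on average. The SUV39H genes were last in every group, at 11.6 to 15.1 on average. Neighbours in the order whose libraries overlapped were Cbx3 with Zfp57 and Suv39h2 with Suv39h1 in J1 serum, Cbx5 with Ehmt2, Ehmt2 with Setdb1 and Suv39h2 with Suv39h1 in J1 2i, and Cbx3 with Cbx1, Setdb1 with Cbx5 and Suv39h1 with Suv39h2 in 3B3L 2i, while no neighbours overlapped in 3B3L serum.

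Transcripts within each gene were compared as their share of the length-scaled reads of the gene, for transcripts with at least 5% in a group. Reads that several transcripts share were divided between them by the authors' quantifier, so these shares are estimates. Of 36 transcripts compared between media in J1, 9 did not overlap, or 14 of 35 in 3B3L, where 24.9% and 24.4% of all transcripts compared did not overlap. Between lines 8 of 37 did not overlap in serum and 10 of 34 in 2i, beside 16.7% and 17.2% of all transcripts. With 3 libraries against 3 the smallest two-sided exact permutation p is 0.1, so none of the 142 comparisons could pass 0.05.

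A pair of transcripts annotated as retained intron, a class with no annotated coding sequence, held more of their gene in 2i in both lines. Setdb1-002 held 7.46, 9.66 and 6.11% of Setdb1 in J1 serum and 13.7, 17.5 and 14.2% in J1 2i. In 3B3L it held 9.84, 9.61 and 10.5% in serum and 14.1, 12.97 and 13.3% in 2i. The media did not overlap in either line (exact permutation p = 0.1 each, 0.346 adjusted over 142 comparisons) and were also apart with reads not scaled by length, by 8.68 percentage points in J1 and 4.06 in 3B3L. Ehmt2-012 held 6.86, 9.004 and 8.35% of Ehmt2 in J1 serum and 11.1, 11.6 and 11.7% in J1 2i. In 3B3L it held 7.26, 9.16 and 5.34% in serum and 13.5, 16.3 and 13.1% in 2i, again without overlap. The 3B3L 2i libraries, lowest in Ehmt2 reads, were highest in this share. Of the other 4 retained intron transcripts compared, Suv39h1-003 was apart between media in 3B3L, at 16.5% ± 1.62 in serum and 26.3% ± 3.92 in 2i (SD, n = 3), but not in J1, and Suv39h1-005, Trim28-009 and Zfp57-008 overlapped between media in both lines. Transcripts not annotated as protein coding were found in 9 of the 10 genes, all but Cbx5. Their summed share was higher on average in 2i than in serum for 8 of these 9 genes in J1 and for 5 in 3B3L. The media did not overlap in this share for Setdb1, Ehmt2, Cbx1 and Zfp57 in J1 and for Setdb1, Trim28, Ehmt2 and Suv39h2 in 3B3L, each higher in 2i. The summed share was not computed over all genes, so whether these counts are particular to these genes was not tested. For Setdb1 the summed share was 8.22% ± 1.70 in J1 serum and 15.9% ± 2.18 in J1 2i, and 10.8% ± 0.861 and 14.1% ± 0.583 in those of 3B3L. Of Ehmt2 it was 12.4% ± 0.390 and 18.2% ± 1.42 for J1, then 12.4% ± 1.41 and 23.0% ± 2.41 for 3B3L. In 3B3L the share went down on average for Cbx1, from 61.2% ± 3.73 to 58.7% ± 1.09, and for Ehmt1, Cbx3 and Zfp57, all with overlap. Cbx1 and Suv39h2 had most of their length-scaled reads in a transcript annotated for nonsense-mediated decay in every group: Cbx1-003 held 57.3% ± 1.42 of Cbx1 in J1 serum and Suv39h2-003 held 67.9% ± 11.8 of Suv39h2.

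**Figure D4:**
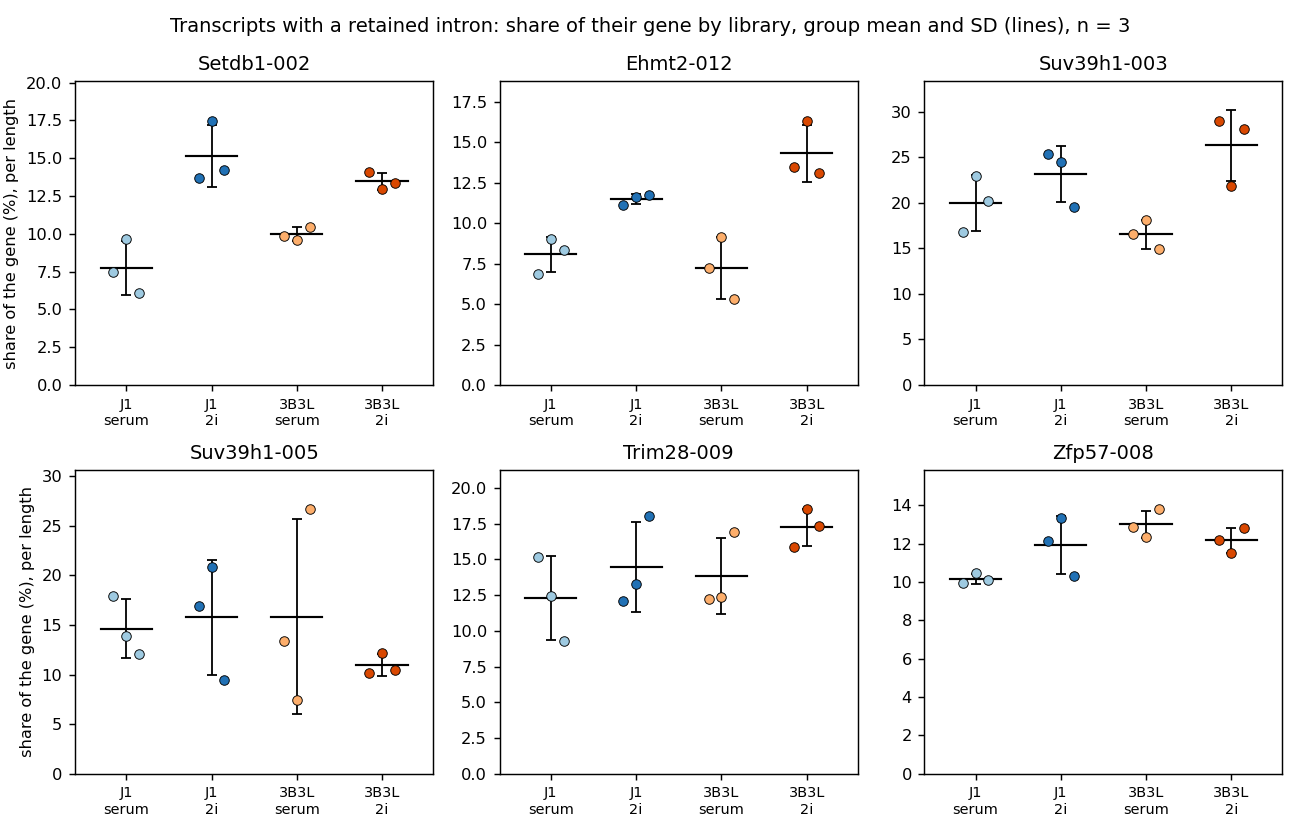
Share of 6 transcripts with a retained intron in the length-scaled reads of their gene (percent, axes from 0 and different between panels) in each library, with group means and SD (n = 3). Setdb1-002 and Ehmt2-012 were higher in 2i than in serum in both lines with no overlap, and the panels of the second row overlap between media.

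The proteins act with others, and 7 further lists were examined. Their counts stand beside 33.2% of all genes called higher and 32.9% lower in J1 2i, and 32.7% in each direction in 3B3L 2i. Between lines in 2i, 23.0% of all genes were higher in 3B3L and 22.9% lower. Of 11 cofactors and further methyltransferases of H3K9, 6 were called lower and none higher in J1 2i (median log2 fold change -0.16, beside 0.01 over all genes in both lines), and 5 lower and 1 higher in 3B3L 2i (median -0.13). Zfp462, a zinc finger gene whose product works with G9A and GLP, fell most in J1, from 125 ± 5.37 to 34.1 ± 3.46 CPM (SD, n = 3; -1.88 ± 0.07, edgeR adjusted p = 1.09e-12). In 3B3L it went from 149 ± 6.90 to 73.4 ± 2.04 CPM, a smaller fall (-1.03 ± 0.06; difference between 2i effects 0.85 ± 0.09, edgeR adjusted p = 5.00e-06). Wiz, another G9A and GLP partner, changed least among the genes called in J1, at 154 ± 6.70 CPM with serum and 138 ± 5.07 CPM with 2i (-0.16 ± 0.05, edgeR adjusted p = 0.00788). In 2i 4 genes of this list were higher in 3B3L than in J1 and none was lower, from Zfp462 at 1.11 ± 0.07 to Cdyl, a chromodomain corepressor gene, at 0.16 ± 0.05 (edgeR adjusted p = 4.16e-09 and 0.0118).

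Of 19 KAP1 and HP1 partners, 6 were called higher and 8 lower in J1 2i (median -0.02), and 7 higher and 4 lower in 3B3L 2i (median -0.02). Chaf1b, a subunit of the histone chaperone CAF-1 that binds HP1, had a log2 fold change of 0.49 ± 0.05 in J1 and Adnp, whose product binds HP1 in the ChAHP complex, of -0.51 ± 0.09 (edgeR adjusted p = 8.37e-07 and 0.000135). Between lines in 2i, 10 of the 19 were higher in 3B3L and 4 lower (median 0.17). Hdac2, a deacetylase of the NuRD complex that KAP1 recruits, had 149.6 ± 5.90 CPM in J1 and 207 ± 1.69 CPM in 3B3L with 2i (0.47 ± 0.05, edgeR adjusted p = 1.18e-06). Sumo2, whose product modifies KAP1, went the other way (-0.50 ± 0.17, edgeR adjusted p = 0.0276). All 5 genes of the HUSH complex and its partners were called in J1, 3 higher and 2 lower in 2i, from Tasor at 0.22 ± 0.08 to Resf1 at -0.44 ± 0.08 (edgeR adjusted p = 0.0266 and 0.000272). In 3B3L 1 was higher and 2 were lower.

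Of 19 KRAB zinc finger genes, whose products recruit KAP1 to DNA, 3 were called higher and 4 lower in J1 2i (median -0.02), and 6 higher and 3 lower in 3B3L 2i (median 0.03). Zfp809, which targets KAP1 to the primer binding site of retroviruses, went from 15.2 ± 0.281 CPM down to 10.8 ± 0.933 CPM from serum to 2i in J1. In 3B3L it went from 16.7 ± 1.68 CPM up to 23.4 ± 0.895 CPM, so that the 2i effects were of opposite sign and both were called (edgeR adjusted p = 5.23e-05 and 3.15e-05, difference 0.98 ± 0.11, edgeR adjusted p = 7.20e-06). Zfp961 had 66.4 ± 4.32 CPM in J1 and 151 ± 4.35 CPM in 3B3L with 2i (1.19 ± 0.06, edgeR adjusted p = 9.84e-10). Zfp819 rose in 2i in both lines, by 0.80 ± 0.07 in J1 and 1.32 ± 0.07 in 3B3L (edgeR adjusted p = 3.59e-08 and 9.89e-11). Of 10 H3K9 demethylase genes tested of 11, 4 were higher and 3 lower in J1 2i (median 0.08), and 3 higher and 5 lower in 3B3L 2i (median -0.17). Kdm3b went from 151 ± 7.10 to 291 ± 8.10 CPM in J1 and Kdm4c from 106 ± 5.15 to 57.9 ± 3.10 (0.95 ± 0.05 and -0.88 ± 0.07, edgeR adjusted p = 3.73e-11 and 8.20e-09). The 2i effect on Kdm7a was more negative in 3B3L than in J1 (difference -1.04 ± 0.16, edgeR adjusted p = 0.000111). In 2i the lines differed by 0.27 ± 0.07 in Kdm4c and -0.64 ± 0.11 in Kdm7a (edgeR adjusted p = 0.00345 and 0.000286).

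Among imprinted genes at imprints bound by ZFP57 and germline genes silenced by these factors, directions were mixed. The counts do not tell the alleles of an imprinted gene apart. Of 16 imprinted genes tested of 17 listed at imprints bound by ZFP57, 4 were higher and 8 lower in J1 2i (median -0.36), and 2 higher and 11 lower in 3B3L 2i (median -0.97), beside the rise of Zfp57 in both. Plagl1 went from 4.42 ± 0.229 to 63.6 ± 6.63 CPM in J1 and Peg10 from 296 ± 11.5 to 20.8 ± 2.09 CPM (3.84 ± 0.11 and -3.83 ± 0.07, edgeR adjusted p = 6.47e-14 and 2.04e-15). In 2i 3 of these genes were higher in 3B3L than in J1 and 7 lower, from Meg3 at 1.12 ± 0.07 to Mest at -1.38 ± 0.05 (edgeR adjusted p = 4.56e-09 and 1.75e-11). The 2i effect was more negative in 3B3L for 10 of the 16 and more positive for 1, Grb10 (0.35 ± 0.09, edgeR adjusted p = 0.00736), with Peg3 the lowest (-1.52 ± 0.10, edgeR adjusted p = 3.82e-08). Over all genes this difference was called negative for 18.3% and positive for 16.3%. Of 15 germline genes tested of 16 that SETDB1 or G9A keep silent, 6 were higher and 6 lower in J1 2i (median 0.20), and 5 higher and 8 lower in 3B3L 2i (median -0.36). Tuba3a, a testis α-tubulin gene, went from 21.3 ± 1.35 to 96.8 ± 15.5 CPM from serum to 2i in J1, and Mael, a piRNA pathway gene, from 8.16 ± 1.38 to 2.15 ± 0.0925 CPM (2.19 ± 0.10 and -1.92 ± 0.13, edgeR adjusted p = 1.10e-11 and 2.06e-09). Tuba3a has near-identical copies, so its reads may be divided between them. The 2i effects on 8 of these germline genes were more negative in 3B3L than in J1 and on none more positive, beside the same 18.3% and 16.3% of all genes, the lowest being Smc1b, a meiotic cohesin gene, at -1.99 ± 0.22 (edgeR adjusted p = 6.40e-06). These lists were chosen with earlier results of these data known, and their medians and counts are descriptions.

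**Figure D5:**
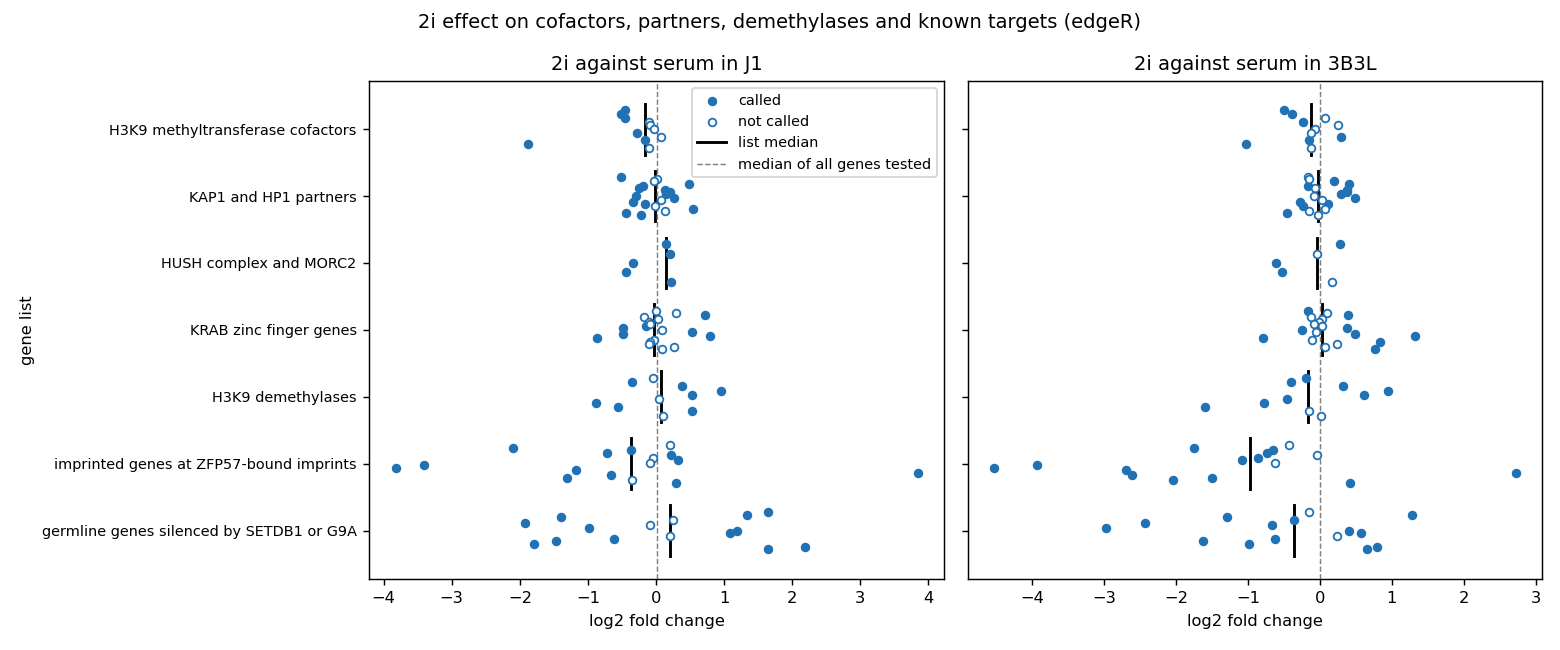
Log2 fold change of 2i against serum in J1 (left) and 3B3L (right) for each gene of 7 lists, with filled points for genes called at an adjusted p under 0.05, open points for genes not called, a black bar for the median of the list and a dashed line for the median of all genes tested. In J1 Zfp462 lies apart from the other cofactors at -1.88, and imprinted genes reach from -3.83 (Peg10) to 3.84 (Plagl1).

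Genes with the pattern most like a member were named from the Pearson r of TMM log2 CPM over the 12 libraries, among 10136 genes whose highest group mean was 10 CPM or more. Closest to Zfp57 were Duox1 (r = 0.996), Gm53 (r = 0.996) and Prkag1 (r = 0.995). For Setdb1 they were Kirrel (r = 0.996), Arhgap17 (r = 0.993) and Man2b1 (r = 0.993). For Trim28 they were Srrt (r = 0.987), Rbm38 (r = 0.985) and Cdc20 (r = 0.983). The 12 libraries share lines and media, so these values describe the order of the groups and carry no test.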

How the data were processed

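Poly(A) RNA libraries were paired-end and stranded. The authors quantified transcripts with Sailfish in stranded mode on mm10 and summed them to genes with tximport. They deposited 1 table of estimated counts per gene and, per library, a transcript table with TPM, effective length and estimated reads. The methods name RefSeq as annotation, while the identifiers in the files are Ensembl. Symbols and coordinates came from a GRCm38.p6 reference, which named 85.6% of 39017 genes.

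Estimated counts, rounded to whole numbers, were tested in edgeR (version 4.0.16, R 4.3.3) with filterByExpr, TMM scaling (factors 0.97 to 1.04), 1 coefficient for each of 4 groups over all 12 libraries and the quasi-likelihood test, with Benjamini-Hochberg adjustment over 17885 genes. The biological coefficient of variation was 6.49%. The 5 contrasts were 2i against serum in J1 and in 3B3L, 3B3L against J1 in serum and in 2i, and the 2i effect of 3B3L against that of J1. DESeq2 (version 1.42.0) was an alternative. Scripts were tested on simulated data.

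Levels per length and shares came from transcript reads divided by effective length, and the deposited TPM values, which the authors' quantifier gave, were used as an alternative. Shares were compared by exact two-sided permutation tests over libraries. The methods of the study call the replicates biological. The sequencing pool of each library was not given in the sources used here.

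The 10 genes, the other lists and the tests were chosen with earlier results of these data known. Of each other list, the called genes with the highest and lowest change in 2i against serum in J1, in 3B3L against J1 in 2i and in the difference between 2i effects could be named, if some group had a mean of 10 CPM or more. For Zfp57, Setdb1 and Trim28, the 3 most correlated genes were named. Dnmt3a and Cbx3-ps3 were added after the values were seen.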

Additional observations from a re-analysis of the deposited data

Results flagged for a closer look

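The 2i effect differed between the lines for 3 of the 10 genes, by the test of the difference itself in edgeR. The effect in 3B3L minus that in J1 was 0.37 on the log2 scale for Trim28 (edgeR adjusted p = 0.00552), whose fall in 2i was smaller in 3B3L. It was -0.48 for Ehmt2 (edgeR adjusted p = 0.000243), whose fall in 2i was larger in 3B3L. It was 0.21 for Cbx1 (edgeR adjusted p = 0.0203), whose fall in 2i was smaller in 3B3L. In serum the lines overlapped in CPM for Trim28 and Ehmt2 and were narrowly apart for Cbx1, and in 2i they were apart for all 3. Of all genes tested, 34.7% were called in this comparison. The cause was not tested.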

How the results depend on the processing

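Of the values of single genes recomputed under the alternatives, 930 kept their direction and their side of the threshold, 42 lost their call, 8 gained one and 11 changed sign, counted apart from the rest. Tested against a fold of 1.2 with edgeR's glmTreat, which asks for a larger change, fewer genes were called. For the media in 3B3L the number fell from 9 to 4 (from 11688 to 8220 over all genes). For the lines in serum it fell from 3 to 0 (6916 to 2738 over all genes). There, 0 of the 10 genes also had an unadjusted glmTreat p under 0.05, a count not given over all genes. The DESeq2 Wald test of any change called 3 of them for the lines in serum, and 6429 over all genes. For the lines in 2i the glmTreat number fell from 6 to 1, Ehmt2 (8208 to 4039 over all genes). For the difference between 2i effects it fell from 3 to 1, Ehmt2 (6200 to 3210 over all genes). With at least 10 counts in every library, which tested fewer genes, 5 genes were called for that difference. Over all genes this was 5864 of 14585, against 6200 of 17885 in the main fit. When 1 library was left out, 8 to 10 genes were called for the media in J1, 7 to 9 for the media in 3B3L, 3 to 4 for the lines in serum, 6 to 7 for the lines in 2i and 2 to 4 for the difference. Over all genes these ranges were 11115 to 12026, 10929 to 12058, 5534 to 7406, 7116 to 8369 and 5225 to 6857. Of the values that changed sign, 1 had been called: Cbx5 went from 0.19 to -0.0068 for the media in J1 with transcript length offsets, and its call ended. With these offsets Cbx5 also went from -0.16 to 0.077 for the lines in 2i and from -0.13 to 0.078 for the difference between 2i effects, neither called. Without 3B3L serum replicate 1 it was at -0.00088 for the media in 3B3L, where leaving out 1 library gave up to 0.13, and at 0.038 for the lines in serum, where it gave down to -0.089. Without J1 serum replicate 2 Cbx3 was at 0.0041 for the lines in serum, where leaving out 1 library gave down to -0.11. For the lines in 2i, Suv39h1 was at -0.0072 with at least 10 counts in every library, at -0.027 without 3B3L 2i replicate 2 (up to 0.055 without another library) and at -0.0062, -0.0061 and -0.0063 without J1 serum replicate 1, 2 or 3. The cause of these changes was not tested. HP1 and methyltransferase pair shares did not overlap in 10 of 20 comparisons, in 9 with reads not scaled by length and in 10 to 12 without 1 library. Such shares were not computed for other gene families, so whether these counts are particular to these genes was not tested. Transcript shares did not overlap in 41 of 142 comparisons and in 33 with reads not scaled by length. Of the neighbours in the order of levels, 28 did not overlap, or 22 with TPM. Mean TPM of Cbx1, Ehmt2, Suv39h1 and Suv39h2 was higher in J1 2i than in J1 serum, opposite to CPM, with overlap between media. For Ehmt2 it was 47.9 ± 6.52 in J1 serum and 52.0 ± 2.02 in J1 2i (SD, n = 3). Trim28 also overlapped, at 615 ± 108 TPM in J1 serum and 592 ± 46.1 in J1 2i. The other genes in J1, and all in 3B3L, kept the direction of CPM in mean TPM. The cause was not tested. Same-numbered replicates of different groups did not deviate together over all genes (correlations from -0.118 to 0.0619). This gave no sign that the numbers pair the samples, but weak pairing, or pairing in few genes, could be missed. With the replicate number as a block, 10, 8, 3, 6 and 3 genes were called in the comparisons in the order above, the block ending the call of Trim28 for the media in 3B3L. Over all genes 11543, 11408, 6383, 7784 and 5623 were called with the block. Adding the reads of Cbx3-ps3 to Cbx3, chosen after seeing the data, left the change of Cbx3 in J1 the same to 2 decimals. With 3 libraries a group, no exact test of shares could pass 0.05.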
